A study of Homo sapiens with 2 samples.

Results

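Cytosolic ribosomal proteins are the protein parts of the 40S and 60S ribosomal subunits, and their 79 genes are described here in cultured human astrocyte progenitors. The genes were chosen by name: symbols of RPL or RPS followed by a number, RPLP0, RPLP1, RPLP2 and RPSA, without kinases of the RPS6K family and without pseudogenes. Of 36601 annotated features, 81 had such a name, and 79 of these reached 5 CPM (unique molecular identifiers, UMIs, of a gene scaled to a fixed library total) in at least 1 library. RPL3L and RPL10L, the paralogs left out by that limit, had 0 UMIs at day 220 and 1 UMI each at day 160. Of the 79 genes, 32 code for proteins of the 40S subunit and 47 for proteins of the 60S subunit.

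Single-cell RNA was sequenced in 2 libraries of progenitors derived from the human embryonic stem cell line H7, 1 at day 220 and 1 at day 160 of differentiation. In both groups the cells carried no stated genetic change and were cultured with LIF (a cytokine) and with BMP4 and FGF1 (growth factors). Each library pooled cells of 3 differentiations that cannot be separated again, so each day is 1 sample, no test was possible, and day and library cannot be told apart. The libraries were made with the 10x Genomics 3′ kit, version 3.1, in which each UMI stands for 1 captured RNA molecule.

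After filters on detected genes, mitochondrial UMIs and doublets, the day 220 library held 518 cells with 25487554 UMIs and the day 160 library 9389 cells with 115158004 UMIs. The median cell had 46079.5 UMIs and 7751.5 detected genes at day 220, against 10041 UMIs and 3203 genes at day 160. Mitochondrially encoded genes took 8.78% of UMIs at day 220 and 11.7% at day 160, and 3 cell barcodes occurred in both libraries. Of 14 astrocyte markers, 11 reached 5 CPM at day 220 and 13 at day 160, and all 12 radial glia markers did so in both libraries. Of 14 neuronal precursor markers, 11 did so in both libraries, and of 13 neuron markers 8 at day 220 and 12 at day 160. Of 9 oligodendrocyte-lineage markers, 5 reached it at day 220 and 4 at day 160, while no marker of microglia or endothelium did in either library. Markers of cell division summed to 457 CPM at day 220 and 1693 CPM at day 160 over 16 of 16 genes at 5 CPM or more in both.

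A ribosome holds 1 copy of nearly every ribosomal protein, the acidic stalk proteins being the main exception, so cells make these proteins in near-equal numbers. Their messenger RNAs are short and abundant and typically begin with a cytosine inside a run of pyrimidines, the 5′ terminal oligopyrimidine (TOP) motif, through which the mTOR pathway sets their translation. Levels of these RNAs differ between dividing, differentiating and resting cells, and a few genes have paralogs with restricted expression.

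The start regions below show the TOP-type tract in genes from both ends of the ratio between the libraries described further on. The first 4 are short genes with higher CPM at day 220, RPS10 is the gene with the highest ratio, and the last 4 are long genes from the low end. Each line has 30 bases before an annotated start and 20 bases from it, from RefSeq on GRCh38.p14, with capitals marking the pyrimidine run that begins at the start.
RPL38, chr17:74203648-74203697, plus strand: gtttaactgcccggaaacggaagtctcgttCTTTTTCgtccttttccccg
RPL37A, chr2:216498814-216498863, plus strand: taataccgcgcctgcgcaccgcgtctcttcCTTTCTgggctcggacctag
RPL41, chr12:56116603-56116652, plus strand: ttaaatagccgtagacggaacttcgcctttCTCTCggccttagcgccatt
RPS27, chr1:153990732-153990781, plus strand: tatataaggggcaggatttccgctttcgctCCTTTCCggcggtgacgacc
RPS10, chr6:34426050-34426099, minus strand: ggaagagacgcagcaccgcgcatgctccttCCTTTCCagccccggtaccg
RPSA, chr3:39406690-39406739, plus strand: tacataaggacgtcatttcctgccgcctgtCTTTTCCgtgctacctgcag
RPLP0, chr12:120201092-120201141, minus strand: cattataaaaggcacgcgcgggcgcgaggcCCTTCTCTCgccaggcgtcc
RPL10, chrX:154398347-154398396, plus strand: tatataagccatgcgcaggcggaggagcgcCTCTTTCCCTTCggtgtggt
RPS3A, chr4:151099598-151099647, plus strand: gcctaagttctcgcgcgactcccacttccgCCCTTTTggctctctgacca

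A start region was on hand for 63 of the 79 genes. Of these, 46 (73.0%) had a run of at least 5 C or T letters that began with C exactly at an annotated start, on the gene's own strand, against 5.14% of the 27305 genes in the same RefSeq table. The run was found in 12 of 16 short, 21 of 24 middle and 13 of 23 long genes, by the length classes given below. The median log2 ratio of day 220 over day 160 was -0.33 for the 46 genes with the run and -0.45 for the 17 without it. The letters TTCCGG, on either strand within the 300-base window, were present in 36 genes (57.1%), against 20.1% of all genes in the table. A match is a description of the letters and does not show that a factor binds there.

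Ribosomal protein genes took a smaller share of the RNA at day 220 than at day 160, while the pooled balance of 40S and 60S RNA differed little. The 79 genes held 12.3% of UMIs (12.26 to 12.29) at day 220 and 15.05% (15.04 to 15.06) at day 160, with exact Clopper-Pearson intervals of 95% that cover counting error only. In numbers of molecules, these were 3129113 UMIs at day 220 and 17330326 UMIs at day 160. With mitochondrial UMIs left out of the total, the shares were 13.5% at day 220 and 17.0% at day 160. The 40S genes had 0.726 UMIs for each 60S UMI (0.724 to 0.728) at day 220 and 0.724 (0.724 to 0.725) at day 160, so these intervals overlapped. In pooled RNA a share cannot tell fewer cells with high levels from less ribosomal protein RNA in each cell, so the shares per cell and per cluster are given further on.

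Levels of the genes lay close together. The CPM values count captured 3′ ends and are not divided by transcript length, and how well each 3′ end is captured is not known, so levels of different genes are rough guides to stoichiometry. The median gene had 1469 CPM at day 220 and 1931 CPM at day 160. Of the 79 genes, 69 lay within 2-fold of that median at day 220 and 62 at day 160. The 10 highest genes together held 23.9% of ribosomal protein UMIs at day 220 and 24.2% at day 160, and 58 of the genes at day 220 and 54 at day 160 were among the 100 highest of all genes.

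**Figure D1:**
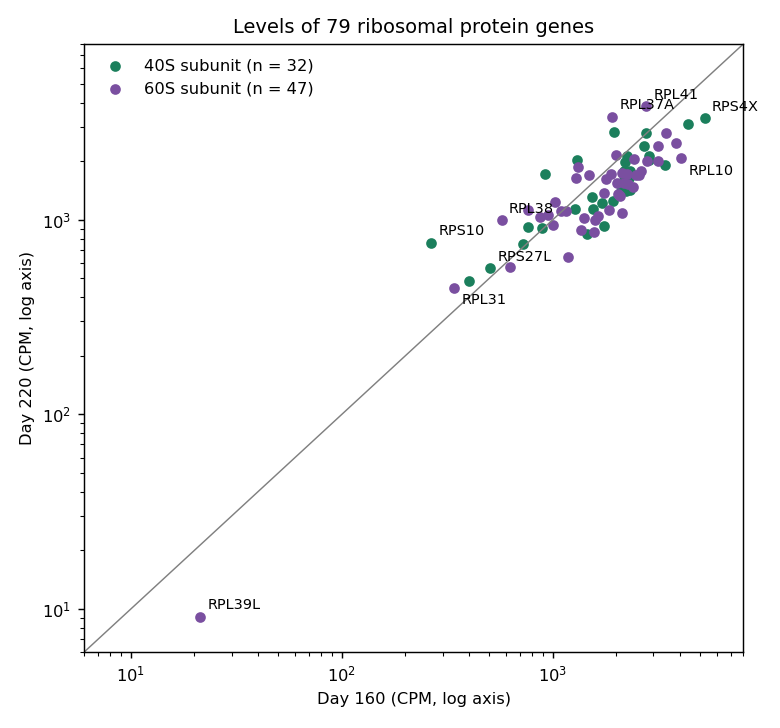
Each point is 1 ribosomal protein gene, with its level in CPM at day 220 on the vertical and at day 160 on the horizontal axis (both log axes) and the line of equal levels. Most genes lie in 1 group near 1000 to 5000 CPM and below the line, RPS10 lies above it and RPL39L lies far below the rest at 9.14 CPM at day 220 and 21.3 CPM at day 160.

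The order of the highest genes differed between the days. At day 220 RPL41, which encodes the shortest of the proteins, was first with 3833 CPM (exact Poisson interval 3809 to 3857), whereas day 160 had 2768 CPM (2758 to 2777) and placed it 13th. RPL37A, a 60S zinc-finger protein, was second at day 220 at 3390 CPM and 41st at day 160 at 1915 CPM. RPS4X, the X-linked form of a 40S protein, had 3343 CPM at day 220 and was first at day 160 at 5250 CPM. RPS2, a 40S protein of the mRNA entry channel, had 3110 CPM at day 220 and 4393 CPM at day 160. RPS27 and RPS19, both of the 40S subunit, completed the 6 highest at day 220 at 2827 and 2797 CPM, against 1946 and 2772 CPM at day 160.

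The remaining genes among the 6 highest at day 160 were RPL10, RPL13, RPLP1 and RPS3A. RPL10, which joins the 60S subunit late in its assembly, had 2069 CPM at day 220 and 4070 CPM at day 160. RPL13 had 2471 CPM at day 220 and 3842 CPM at day 160, RPLP1 of the stalk had 2782 CPM at day 220 and 3442 CPM at day 160, and RPS3A of the 40S subunit had 1917 CPM at day 220 and 3399 CPM at day 160. The 6 highest genes of day 160 were thus all lower at day 220.

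Above RPL39L, the lowest genes were largely the same in both libraries. RPL31, at the exit of the peptide tunnel, had 446 CPM at day 220 and 342 CPM at day 160. RPS27L, the paralog of RPS27, had 563 CPM at day 220 and 505 CPM at day 160. RPL36A had 574 CPM at day 220, against 628 CPM at day 160, followed by RPL4 of the tunnel wall at 646 CPM at day 220 and 1180 CPM at day 160. RPL38 had 1000 CPM (987 to 1012) at day 220, and at day 160, with 573 CPM, it was among the 6 lowest. Across the 79 genes the levels of the libraries had a Spearman rho of 0.80, a description over genes that share libraries and are not replicates.

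The ratios between the days were modest but ordered. The log2 ratio, of day 220 CPM + 1 over day 160 CPM + 1, had a median of -0.38 over the 79 genes, with quartiles of -0.62 and 0.04, while the median over all 11994 genes of 5 CPM or more in a library was 0.16. Below 0 were 56 genes and above 0 were 23, while 42.2% of all genes tested were below 0. The 95% counting interval of the CPM ratio (exact conditional binomial) left out 1 for all but 1 of the 79 genes. Such intervals are narrow for genes with this many UMIs, and the same count over all genes was not computed. At least 2-fold lower at day 220 was 1 gene, RPL39L, against 5.04% of all genes tested, and at least 2-fold higher was 1 gene, RPS10, against 23.6%. The standard deviation over the 78 genes of 100 CPM or more was 0.50, against 1.47 over the 2028 genes of that level in the whole table.

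Ribosomal protein genes have short introns (a median of 2410 intronic bases, against 30735 over all tested genes), so their ratios were also set against genes of like intron length. On this centred scale the median over the 79 genes was -0.05 and 41 genes lay below 0. After centring, 1 gene was at least 2-fold lower, against 7.52% of tested genes, and 3 were at least 2-fold higher, against 11.6%. The higher ones were RPS10, RPL38 and RPS28.

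Among themselves, the genes followed the length of the protein they encode. Over the 78 genes of 50 CPM or more in a library, coding length in codons and the log2 ratio had a Spearman rho of -0.84, with -0.81 over 32 genes of the 40S subunit and -0.85 over 46 genes of the 60S subunit. Of 19 short genes, under 120 codons, 14 had a ratio above 0 and the median was 0.18. Of 29 genes of middle length, 9 were above 0 and the median was -0.22. Of 30 long genes, over 170 codons, 0 were above 0 and the median was -0.65. These limits were set after the ratios were seen, and RPS20 with 119 codons and RPL35 with 123 codons lie on either side of the first, at log2 ratios of 0.06 and 0.24. Of all other coding genes tested, 38.3% of short, 27.8% of middle and 41.7% of those over 170 and up to 430 codons were above 0. For those of 100 CPM or more with under 10000 intronic bases, these shares were 39.2%, 16.5% and 13.9%.

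**Figure D2:**
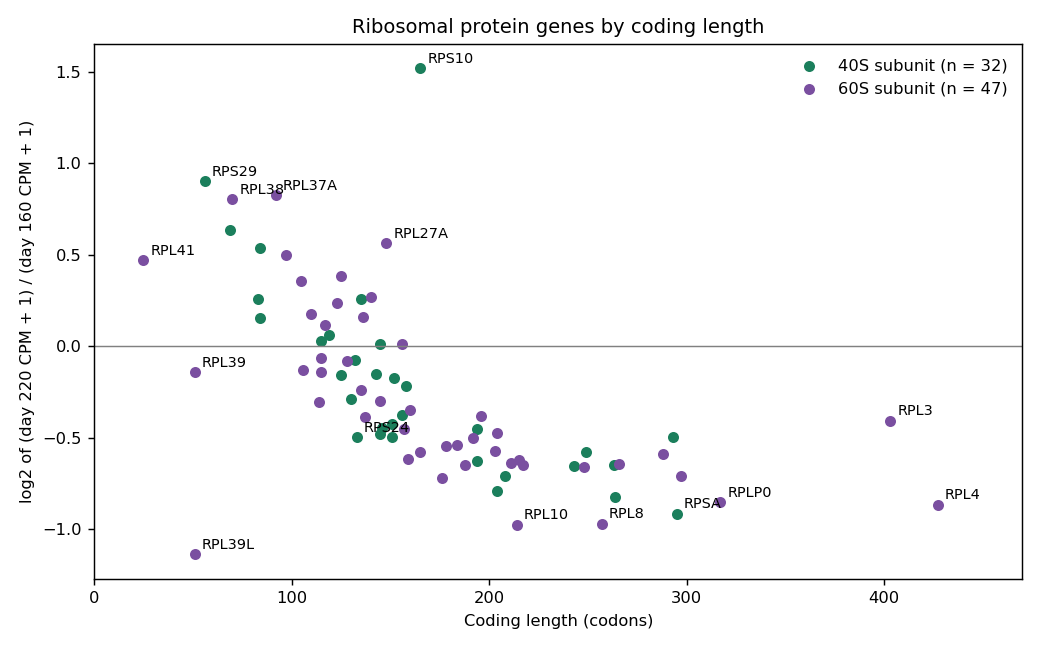
Each point is 1 ribosomal protein gene, with coding length in codons on the horizontal axis and the log2 ratio of day 220 over day 160 on the vertical axis, coloured by subunit. The ratios are mostly above 0 among the shortest genes and below 0 for all genes over 170 codons, and RPS10 at 165 codons and RPL39L at 51 codons lie apart from the rest.

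At the high end, most of the genes were short ones. RPS29, a 40S zinc-binding protein of 56 codons, had 1724 CPM (interval 1708 to 1741) at day 220, against 923 CPM (917 to 928) at day 160, for a log2 ratio of 0.90. RPL37A, of 92 codons, had a log2 ratio of 0.82, and RPL38, a 60S protein whose loss in mice gives skeletal patterning defects, had a log2 ratio of 0.80 at 70 codons. RPS28 of the 40S subunit had 2031 CPM at day 220 and 1306 CPM at day 160, a log2 ratio of 0.64. RPL27A, at 148 codons the longest but RPS10 of the 8 highest ratios, had 1126 CPM at day 220 and 761 CPM at day 160, a log2 ratio of 0.56. RPS27 had a log2 ratio of 0.54, and RPL37 had 1860 CPM at day 220 and 1317 CPM at day 160, a log2 ratio of 0.50. None of these 7 genes reached 2-fold, and all 7 counting intervals lay above a ratio of 1.

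At the low end, each of the 6 lowest genes of 50 CPM or more was long. RPL10, of 214 codons, had a log2 ratio of -0.98, the lowest apart from RPL39L, and was 1.97-fold lower (1.95 to 1.99) at day 220. RPL8, a 60S protein near the peptidyl transferase centre, had 1087 CPM at day 220 and 2133 CPM at day 160, a log2 ratio of -0.97. RPSA, a 40S protein also known as the laminin receptor, had 925 CPM at day 220 and 1746 CPM at day 160, a log2 ratio of -0.92. RPL4 had a log2 ratio of -0.87, and RPLP0, the base of the stalk, had 870 CPM at day 220 and 1573 CPM at day 160, a log2 ratio of -0.85. RPS3A had a log2 ratio of -0.83. The counting intervals of all 6 lay below a ratio of 1.

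Counted as shares of ribosomal protein UMIs, the short genes held 27.0% at day 220 and 18.2% at day 160, and the long genes held 38.8% at day 220 and 49.3% at day 160. The relation depended on which length was used: with the length of the principal annotated transcript in place of codons the rho was -0.18, with the shortest transcript of the same coding sequence it was -0.40, and with the median coding transcript it was -0.47. Which transcript ends the cells used was not measured.

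The same order was seen within clusters of cells given the same name in both libraries. These cells are part of the pooled totals on which the length limits were set, so the values are no separate support. The rho was -0.83 in astrocyte-like cells (106 at day 220 and 2445 at day 160), -0.85 in cycling-like cells (31 and 2134), -0.86 in mesenchymal-like cells (47 and 565) and -0.79 in neuron-like cells (41 and 2061), with 0 of 30 long genes above 0 in each. With each cell thinned to 5000 UMIs it was -0.84. Within a library the relation was weaker: for cells above the median UMI count over those at or below it, rho was 0.01 at day 220 and 0.30 at day 160. For barcodes that failed the mitochondrial limit over kept cells it was -0.17 at day 220 and -0.29 at day 160, and for single clusters of at least 50 cells over the other cells of their library it ran from -0.29 to 0.45.

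Outside the ribosomal protein genes, the order depended on which genes and which length were taken. Over all 10920 other coding genes tested, the rho of codons and log2 ratio was 0.39, with medians of -0.15 over 420 genes under 120 codons and 0.43 over 6048 genes of more than 430 codons. Over the 2624 of these with under 10000 intronic bases the rho was 0.05, with medians of -0.17 over 248 genes under 120 codons and -0.29 over 788 genes of more than 430. Among 577 other coding genes of 100 CPM or more with under 10000 intronic bases, the rho was -0.30, and the medians were -0.15 for 130 genes under 120 codons, -0.40 for 97 of middle length, -0.58 for 273 genes of over 170 and up to 430 codons and -0.57 for 77 longer genes. Over 78 genes of mitochondrial ribosomal proteins, which form a separate ribosome, the rho was -0.28. Their medians were -0.04 over 8 short, -0.35 over 21 middle and -0.42 over 48 long genes. By the shortest transcript of the same coding sequence, 56 of all other coding genes were under 500 bases, with a median of 0.33. The 683 genes of 500 to 1000 bases had -0.32 and the 10181 longer ones 0.16. Among the 2624 genes, 33 under 500 bases had a median of 0.31. Among the 577 genes, the medians were 0.36 over 23 genes under 500 bases, -0.34 over 197 of 500 to 1000 and -0.55 over 357 longer. Depth per cell and the share of mitochondrial UMIs differ between the libraries, as given above, and library preparation is confounded with the day, so day and library cannot be told apart here.

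RPS10 stood outside the length order. RPS10 (ENSG00000124614, chromosome 6, 34417454 to 34426125 on GRCh38), a 40S protein of the beak region with 165 codons, had 763 CPM (interval 752 to 774) at day 220, against 266 CPM (263 to 269) at day 160, for a ratio of 2.87 (2.82 to 2.92) and a log2 ratio of 1.52. At day 160 only RPL39L was lower among the 79 genes. The ratio was 2.69 in astrocyte-like, 2.98 in cycling-like, 2.73 in mesenchymal-like and 2.85 in neuron-like cells. RPL12, a stalk-base protein of the same coding length, had a log2 ratio of -0.58. RPS10 overlaps the readthrough gene RPS10-NUDT3 on the same strand, which had 2.001 CPM at day 220 and 0.59 CPM at day 160. How reads in the overlap were handled may thus affect the RPS10 count. RPS13, RPL36 and RPL18 also overlap another gene on their strand, and had log2 ratios of -0.50, 0.35 and -0.65. NUDT3 itself had 50.7 CPM at day 220 and 74.5 CPM at day 160. The gene annotation behind the counts is not named in the sources, and its part in the RPS10 ratio was not tested.

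The genes are grouped next by position in the ribosome. All 4 stalk genes were below 0 (median -0.44): RPLP0 at -0.85, RPL12 at -0.58, RPLP1 at -0.31 and RPLP2, with 1104 CPM at day 220 and 1155 CPM at day 160, at -0.07. RPL5 and RPL11, which with the 5S rRNA form the particle that binds MDM2 when ribosome assembly fails, had log2 ratios of -0.71 and -0.54. RPL5 had 1469 CPM at day 220 and 2404 CPM at day 160, and RPL11 had 1788 CPM at day 220 and 2607 CPM at day 160. The 3 tunnel-wall genes (RPL4, RPL17 and RPL39) were all below 0, and of 6 tunnel-exit genes 3 were above 0, with a median of -0.03.

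In the 40S subunit, the entry-channel genes RPS2 and RPS3 had log2 ratios of -0.50 and -0.66, and the platform genes RPS14, RPS26 and RPSA had a median of -0.42. RPS6, the 40S protein phosphorylated downstream of mTOR, had 1411 CPM at day 220 and 2110 CPM at day 160, a log2 ratio of -0.58. RPS27A, made as a fusion with ubiquitin, had 1787 CPM at day 220 and 2317 CPM at day 160, a log2 ratio of -0.37. The decoding genes RPS15 and RPS23 had a median of -0.32, and of the beak genes RPS10, RPS12 and RPS27A only RPS10 was above 0. The 4 X-linked genes RPS4X, RPL10, RPL36A and RPL39 were all below 0, with a median of -0.40. Of 18 genes in which variants cause Diamond-Blackfan anaemia, 10 were above 0 and 8 below, the median was 0.02, and RPS10 was the 1 member at least 2-fold higher. Of all genes tested, 42.2% were below 0 and 23.6% were at least 2-fold higher.

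Other genes of the translation machinery are given for comparison, by count and median, beside 5.04% of all tested genes at least 2-fold lower, 23.6% at least 2-fold higher and 42.2% below 0. Of 21 translation factors and further TOP-type genes, 20 were below 0 with a median of -0.59, 1 was at least 2-fold lower and 0 were at least 2-fold higher. The lower one was BTF3, a subunit of the nascent polypeptide-associated complex, with 481 CPM at day 220 and 972 CPM at day 160. EEF1A1, the main elongation factor, had 6787 CPM at day 220 and 11049 CPM at day 160, a log2 ratio of -0.70. Of 34 ribosome biogenesis genes none passed 2-fold and the median was -0.10, and of 12 genes of RNA polymerase I and its regulators 1, POLR1A, was at least 2-fold higher, at 23.1 CPM at day 220 and 8.45 CPM at day 160, with a median of 0.01 over the list. Of 78 mitochondrial ribosomal protein genes 1 was at least 2-fold higher and 0 were lower, with a median of -0.36.

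Paralogs made up small to moderate parts of their pairs. RPL39L, a paralog of RPL39 known from male germ cells, held 0.562% (0.492 to 0.638) of the UMIs of its pair at day 220 and 1.18% (1.13 to 1.23) at day 160. RPL22L1 held 7.50% (7.19 to 7.83) of its pair with RPL22 at day 220 and 9.81% (9.64 to 9.97) at day 160, a difference (day 220 minus day 160) of -2.30 percentage points that was -4.03 with at most 10% mitochondrial UMIs and -1.13 with cells thinned to 5000 UMIs. RPS27L, whose gene is a p53 target, held 16.6% (16.4 to 16.9) of its pair with RPS27 at day 220 and 20.6% (20.5 to 20.8) at day 160, a difference of -4.00 points that was -6.70 at the stricter mitochondrial limit. In this pair RPS27L itself was 1.11-fold higher (1.09 to 1.13) at day 220, and RPS27 was 1.45-fold higher.

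RPL36AL held 37.1% (36.4 to 37.7) of its pair with RPL36A at day 220 and 35.4% (35.1 to 35.7) at day 160, but with cells thinned to 5000 UMIs the order was reversed, at 32.8% at day 220 and 34.2% at day 160. RPL7L1 held 9.70% at day 220 and 8.19% at day 160, a difference of 1.51 points that was 0.734 at the stricter limit. RPL26L1 held 4.09% at day 220 and 4.42% at day 160, a difference of -0.327 points that was -0.599 at that limit. Near-identical paralogs share sequence and 76 of the 79 genes have annotated pseudogenes, up to 91 for RPL23A, so small differences between paralogs are uncertain.

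RPL39L followed the dividing cells in both libraries. In the cycling-like clusters it held 3.54% and 3.70% of its pair at day 220 and 2.76%, 2.93% and 2.92% at day 160. In the other clusters it held from 0.244% to 0.819% at day 220 and, leaving out a cluster of 24 cells with 1 RPL39L UMI, from 0.461% to 0.870% at day 160. In cycling-like cells over the other cells of the same library, RPL39L was 10.5-fold higher (8.03 to 13.7) at day 220 and 3.90-fold higher (3.60 to 4.22) at day 160, while RPL39 was at 0.965 of the other cells at day 220 and 0.893 at day 160. These ratios rest on 101 RPL39L UMIs in 31 cells at day 220 and 1395 in 2134 cells at day 160.

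Cycling-like cells were 5.98% (4.10 to 8.39) of kept cells at day 220 and 22.7% (21.9 to 23.6) at day 160. Within them, RPL39L had 58.4 CPM at day 220 and 48.0 CPM at day 160, a ratio of 1.21 (0.983 to 1.49) whose interval included 1. In astrocyte-like cells it had 3.26 CPM at day 220 and 9.90 CPM at day 160, a ratio of 0.329 (0.204 to 0.506). The difference between those ratios was not tested.

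**Figure D3:**
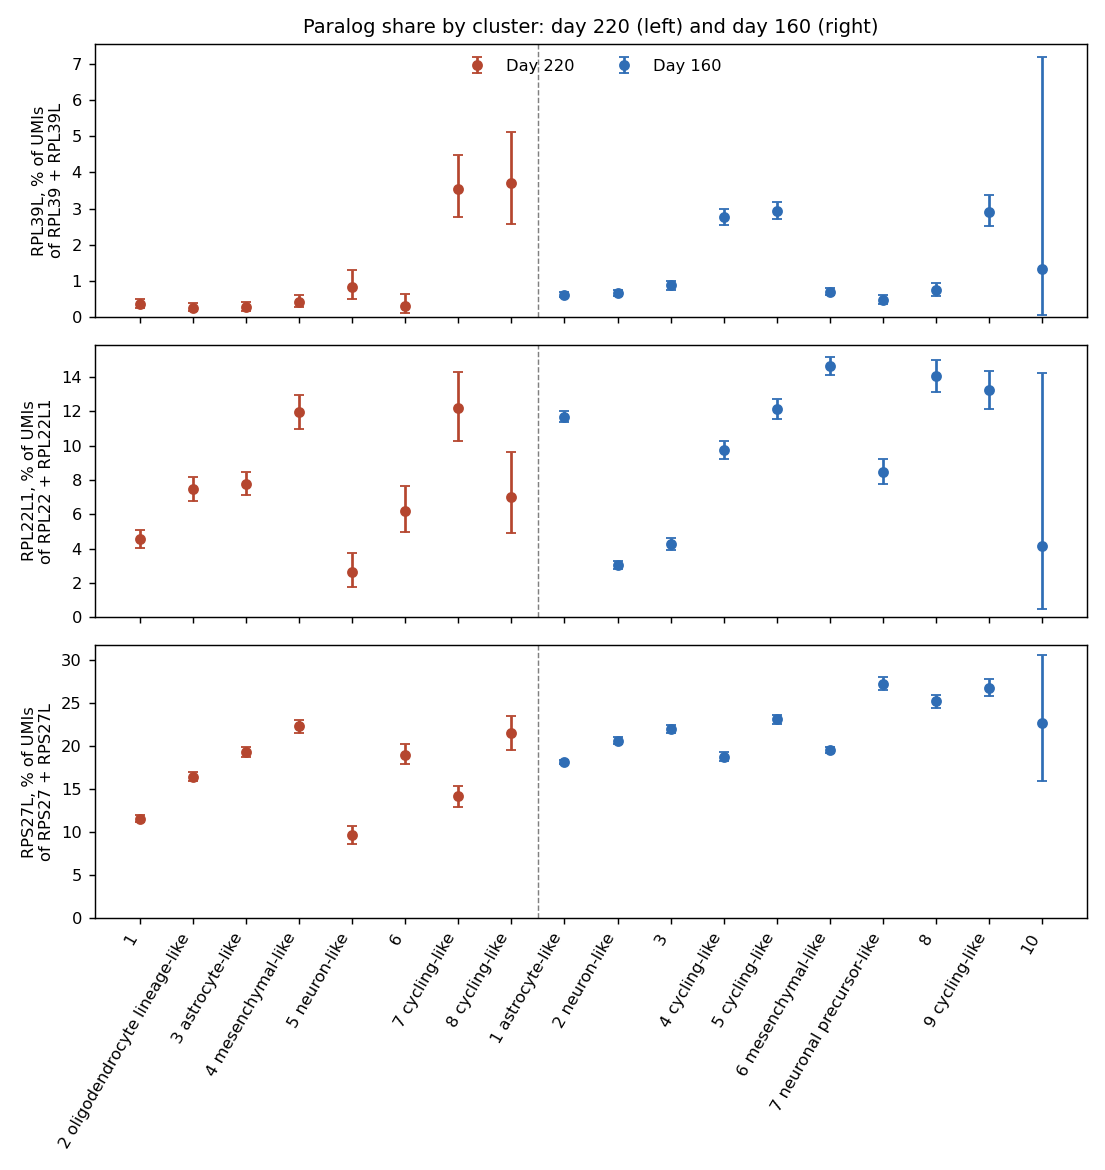
Shares of RPL39L, RPL22L1 and RPS27L in the UMIs of their pairs are shown for each cluster, day 220 left of the dashed line and day 160 right of it, with exact 95% counting intervals as bars. RPL39L is highest in the cycling-like clusters of both days, at 2.76% to 3.70%, and RPL22L1 is lowest in neuron-like cells of day 220 and of day 160, at 2.62% and 3.03%.

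The shares of RPL22L1 and RPS27L were ordered differently over the clusters. RPL22L1 held 11.96% of its pair in mesenchymal-like cells at day 220 and 14.6% at day 160, the highest value of day 160. Its share in cycling-like clusters was 12.2%, the highest of day 220, and 7.01% at day 220. At day 160 it was 9.73%, 12.1% and 13.2% in such clusters. In neuron-like cells it held 2.62% (1.76 to 3.75) at day 220 and 3.03% (2.79 to 3.28) at day 160, the lowest value of each library, and its level was at 0.420 of the other cells of the library at day 220 and 0.360 at day 160. In astrocyte-like cells it had 70.2 CPM at day 220 and 116 CPM at day 160. The mesenchymal-like name rests on COL1A1 and contractile genes, since COL3A1, DCN and LUM had 0 UMIs in at least 1 library.

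RPS27L differed in direction between cell groups. In neuron-like cells it held 9.61% of its pair at day 220 and 20.6% at day 160, and it had 360 CPM at day 220 and 599 CPM at day 160, a ratio of 0.601 (0.536 to 0.672). In astrocyte-like cells it had 590 CPM at day 220 and 424 CPM at day 160, a ratio of 1.39 (1.34 to 1.44). Its highest share was 22.3% in mesenchymal-like cells at day 220 and 27.2% in neuronal precursor-like cells at day 160. Its share in cycling-like clusters was 14.1% and 21.4% at day 220 and 18.7%, 23.1% and 26.7% at day 160. Among all 79 genes it also had the highest dispersion between single cells given each cell's ribosomal protein total, with an index of 2.13 at day 220 and 2.36 at day 160 after thinning, where 1 is the value of random sampling and the median gene had 1.16 at day 220 and 1.14 at day 160.

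The shares and the subunit balance varied from cell to cell. The median cell had 12.3% of its UMIs in these genes at day 220 (5th to 95th percentile 7.60 to 19.6) and 15.3% at day 160 (10.3 to 20.4). The median ratio of 40S to 60S UMIs was 0.729 at day 220 (0.667 to 0.795) and 0.725 at day 160 (0.649 to 0.812). Between clusters the ratio of 40S to 60S UMIs ran from 0.702 to 0.762 at day 220 and from 0.705 to 0.751 at day 160. In astrocyte-like cells it was 0.737 (0.734 to 0.741) at day 220 and 0.708 (0.707 to 0.709) at day 160. In mesenchymal-like cells the direction was opposite, at 0.702 (0.698 to 0.706) at day 220 and 0.718 (0.716 to 0.720) at day 160. In cycling-like cells it was 0.744 at day 220 and 0.749 at day 160, and in neuron-like cells 0.724 at day 220 and 0.723 at day 160. These intervals cover counting error only and are too narrow for the spread between cells. Over all kept cells, without thinning, the 40S share had a dispersion index of 3.097 at day 220 and 1.691 at day 160. These values are not matched for depth per cell. In thinned cells the index was 1.284 at day 220 and 1.295 at day 160, so it was not higher at day 220. Random sampling would give 1. The difference between these cell groups was not tested, so the opposite directions are only described. Cells with under 5% were 13 of 518 at day 220 and 19 of 9389 at day 160. The median cell had a UMI of 78 of the 79 genes in both libraries.

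The long genes' share lay apart in most cells of the 2 libraries. The length classes were limited after the ratios of these same libraries were seen. A lower pooled long share at day 220 therefore follows from that choice and is no separate support. The values below describe spread over cells, which are not replicates. Its 5th to 95th percentile over cells ran from 34.5% to 41.7% at day 220 and from 45.8% to 52.3% at day 160, so these ranges did not overlap. By cluster, the long genes held from 37.7% to 39.5% in all 8 clusters of day 220 and from 48.7% to 51.4% in all 10 clusters of day 160. The short genes held from 26.5% to 27.9% at day 220 and from 17.4% to 18.8% at day 160. Across cells the long share had a Spearman rho with the cell's UMI count of -0.05 at day 220 and 0.16 at day 160, and with its mitochondrial share of -0.09 at day 220 and -0.04 at day 160.

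**Figure D4:**
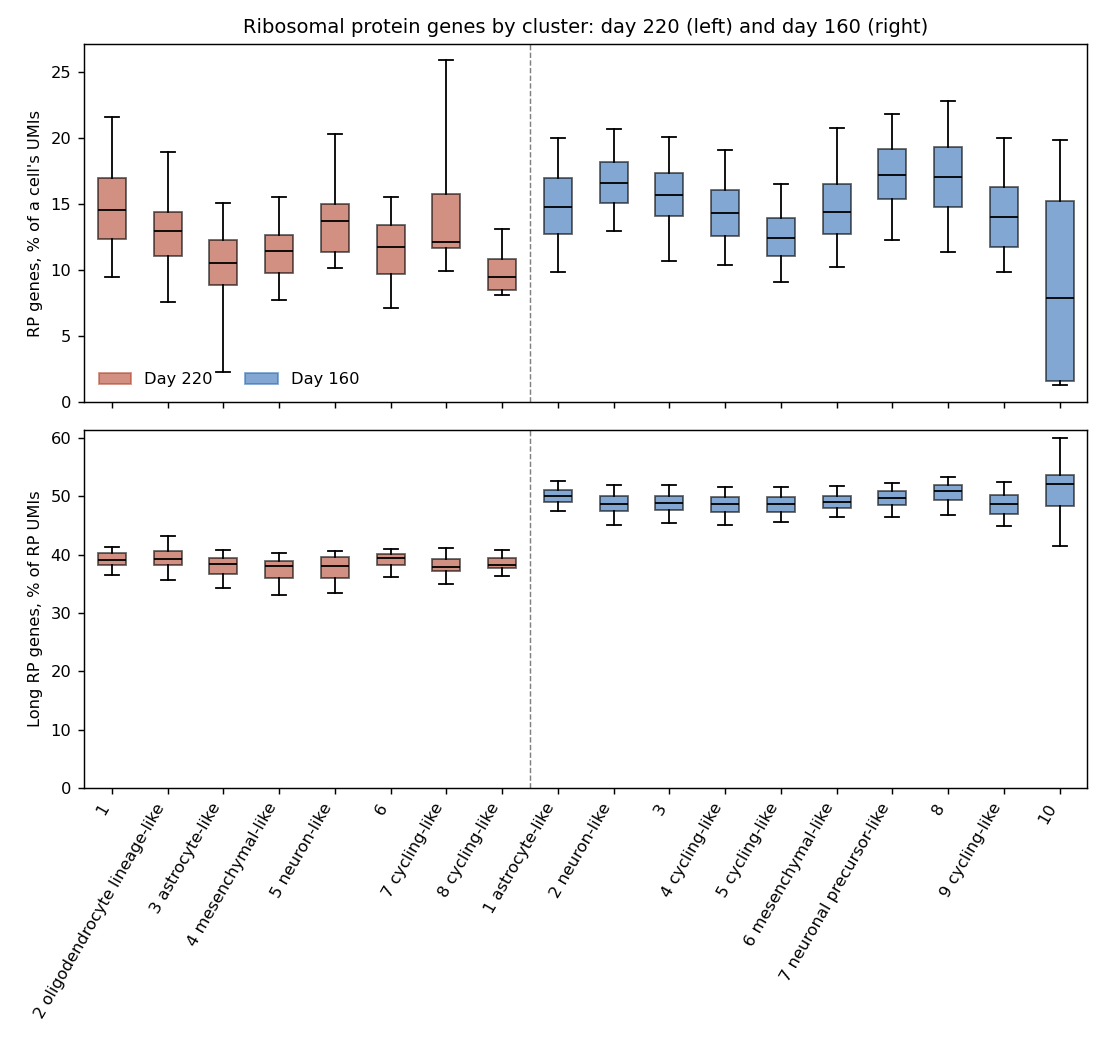
Boxes give the median and quartiles over cells, and whiskers the 5th and 95th percentiles, of the share of UMIs in ribosomal protein genes (top) and of the long genes' share of ribosomal protein UMIs (bottom), by cluster, with day 220 left and day 160 right of the dashed line. The total share varies between clusters of both days, while the long genes' share is near 38% to 39% in each cluster of day 220 and near 49% to 52% in each cluster of day 160.

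The total share differed between clusters. At day 220 it ran from 9.70% in a cycling-like cluster of 10 cells to 14.7% in cluster 1, an unnamed cluster led by NPY and PEG10. At day 160 it ran from 9.09% in an unnamed cluster of 24 cells, and 12.4% in cycling-like cluster 5, to 17.2% in neuronal precursor-like cells. Under the same name, the share was 10.7% at day 220 and 14.8% at day 160 in astrocyte-like cells, 11.2% at day 220 and 13.4% at day 160 in cycling-like cells, 11.9% at day 220 and 15.6% at day 160 in mesenchymal-like cells, and 14.1% at day 220 and 16.6% at day 160 in neuron-like cells, so it was lower at day 220 in all 4.

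In astrocyte-like cells 8 of the 79 genes were at least 2-fold lower at day 220 (5.08% of all genes tested there) and 1, RPS10, was at least 2-fold higher (23.8%). The 8 were RPL39L, RPL10, RPL8, RPLP0, RPL4, RPS3A, RPSA and RPL5. In cycling-like cells 0 were lower (3.51%) and RPS10 and RPL37A were higher (26%), and in mesenchymal-like cells RPL10 was lower (5.62%) and RPS10 higher (20.4%). In neuron-like cells RPL8 and RPSA were lower (7.52%) and RPS10, RPL38 and RPS29 were higher (28.3%).

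Among genes of 100 CPM or more, only RPL34 at day 160 ranged over 2-fold between clusters of at least 50 cells in 1 library. RPL39L, which lay below that level, ranged 2.23-fold at day 220 and 5.57-fold at day 160. Among 3 clusters of at least 50 cells at day 220, wide ranges of genes of 100 CPM or more were those of RPL37A at 1.87-fold, RPL36A at 1.77-fold, RPS4X at 1.75-fold and RPS16 at 1.67-fold. In each of these 4 the highest level was in cluster 1 and the lowest in astrocyte-like cells, which are also the clusters of highest and lowest total. Among 9 such clusters at day 160, wide ranges were those of RPL34 at 2.01-fold, RPS27L at 1.94-fold, RPL12 at 1.79-fold and RPL5 at 1.78-fold. RPL34, of the 60S subunit, was highest in neuron-like cells at 2744 CPM and lowest in cycling-like cluster 5 at 1363 CPM, while RPL12 was highest in mesenchymal-like cells at 2792 CPM and lowest in cycling-like cluster 5 at 1556 CPM.

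Between cells, after RPS27L, the highest dispersion indices at day 220 were those of RPL41 (2.05), RPL39L (2.04), RPS19 (1.96) and RPL37A (1.78). At day 160 they were those of RPS19 (1.89), RPLP1 (1.86), RPL10 (1.73) and RPL41 (1.73). An index above 1.5 was found for 9 genes at day 220 and 10 at day 160. RPL39L had a UMI in 4.51% of thinned cells at day 220, so its index rests on few cells.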

How the data were processed

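The time-point label gave the group, with 1 library a day and 3 pooled differentiations in each, per the labels. For the later library the protocol text still names day 160, while its title and time point give day 220, and the deposited names of the libraries carry different prefixes of unstated meaning, so the cultures may differ in more than time. The authors deposited unnormalised UMI counts for each gene in each cell barcode, which come from Cell Ranger 7.0.1 according to the file headers. The submitters' processing notes list Seurat 4 and hg38. No source used here states whether intronic reads or strand entered the counting.

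Barcodes with at least 1000 detected genes and at most 15% mitochondrial UMIs passed (524 of 676 at day 220 and 9972 of 13018 at day 160). Scrublet (scanpy 1.11.5, expected rate 0.06) marked 6 doublets at day 220 and 583 at day 160, which were left out. Counts were summed over cells and scaled to CPM. Log2 ratios used a pseudocount of 1 CPM over all genes of the table, and those of 5 CPM or more in a library were counted. Intervals (exact Poisson, conditional binomial and Clopper-Pearson, 95%) cover counting error only, and PCR or capture bias is not included. Ratios and intervals were checked on simulated counts.

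Each library was clustered alone without the ribosomal protein and mitochondrial genes (2000 variable genes, 30 components, 15 neighbours, Leiden resolution 0.5). Clusters took a name from marker lists, with at least 3 raised markers and at least 1 among the 10 leading genes, and no more of another list's. Names are rebuilt and may differ from the study's. The dispersion index is the variance of a gene's count over that expected from the cell's ribosomal protein total, in cells thinned to 5000 UMIs, which left out 30 cells at day 220 and 690 at day 160.

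Coding lengths and introns came from GENCODE release 29 on GRCh38, matched by gene identifier, and start regions from RefSeq. The genes named are the paralog pairs, RPLP0, RPLP1, RPLP2, RPSA, RPL5, RPL11, RPS27A, RPL41 and RPS6, the 6 highest and 6 lowest levels of each library, the 8 highest and 8 lowest ratios, and the 5 widest cluster ranges and 5 highest dispersions of each library, with examples from role lists. Some genes that meet this rule, and 1 alternative with a wider set of genes, are not reported here. RPS3, RPL12, NUDT3, BTF3, EEF1A1 and POLR1A were named outside this rule after their values were seen. The genes, lists and length classes were chosen with earlier results of these data known. Alternatives covered the cell filters, thinning, the pseudocount, mitochondrial UMIs, the level limit, intron length, clusters and the length measure.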

Additional observations from a re-analysis of the deposited data

How the results depend on the processing

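No paired analysis was possible because each day is 1 library. All alternatives gave the same direction for the ribosomal protein share, its median log2 ratio and the relation with coding length. Centred on intron length, though, the genes were split nearly evenly, with 41 of the 79 below 0. The difference in share, day 220 minus day 160 and -2.77 percentage points as reported, was -2.71 with doublets kept, -2.75 at 10% mitochondrial UMIs, -2.74 at 2000 genes, -2.70 thinned, -2.55 as a mean over cells and -3.58 without mitochondrial UMIs. The median log2 ratio was -0.37 with doublets kept, -0.37 at 10% mitochondrial UMIs, -0.40 thinned, -0.43 without mitochondrial UMIs, -0.37 with no level limit, -0.046 centred on intron length, -0.51 in astrocyte-like, -0.33 in cycling-like, -0.43 in mesenchymal-like and -0.31 in neuron-like cells. Genes at least 2-fold lower numbered 8 in astrocyte-like (5.08% of all genes tested), 0 in cycling-like (3.51%) and 2 in neuron-like cells (7.52%). They numbered 2 thinned and 3 without mitochondrial UMIs, for which the share of all genes was not computed. Genes at least 2-fold higher numbered 3 when centred (11.6% of all genes tested), 2 in cycling-like (26%) and 3 in neuron-like cells (28.3%). The 40S to 60S ratio, day 220 minus day 160, differed by 0.0063 when thinned and by -0.00043 at 10% mitochondrial UMIs, against 0.0018.

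Paralog shares, day 220 minus day 160 in percentage points, moved at 10% mitochondrial UMIs to 0.734 for RPL7L1, -4.03 for RPL22L1, -0.599 for RPL26L1, 0.610 for RPL36AL, -0.837 for RPL39L and -6.70 for RPS27L. Thinned, they were -1.13 for RPL22L1, -5.62 for RPS27L and -1.45 for RPL36AL, which reversed from 1.64, and the cause was not tested. The rho of coding length, -0.84, was -0.78 with RPL39L, -0.79 in neuron-like cells, -0.40 with the shortest transcript and -0.18 with the principal transcript, and -0.87 without RPS10. These length alternatives were chosen after seeing the data.

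The day 220 library has 518 cells, so values of its smaller clusters rest on 10 to 47 cells. Spread between cultures was not measured at either day.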
